A study of Homo sapiens with 8 samples.

Results

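Neuroendocrine differentiation of prostate cancer cells was followed here through 9 genes, ENO2, CHGA, CHGB, SYP, SCG2, SCG5, INSM1, TUBB3 and REST, chosen by name from the gene table. Of these 9 genes, 8 had counts among the 36474 genes of the table and INSM1 was not analysed here. A filter on low counts kept 6 of them among 21071 genes tested, and CHGA and CHGB did not pass it. The cells were LNCaP, an established androgen-responsive line from a metastasis of a human prostate carcinoma. In the study, all cells were first starved in medium lacking serum and calcium, and human recombinant ASPN (asporin, a small matrix proteoglycan secreted by stromal cells) was then given at 100 ng/mL. RNA was taken at 0 h (2 libraries), 12 h (3 libraries) and 24 h (3 libraries), and the labels call the libraries of a time biological replicates. No library kept for 12 h or 24 h without ASPN was analysed here, so ASPN and further time in the starvation medium cannot be told apart in any comparison with 0 h. The cells of a time came from wells of the same line, so p-values measure the spread between wells.

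Neuroendocrine cells store peptides in dense-core granules and release them when stimulated. Granins (CHGA, CHGB, SCG2) pack these granules, the chaperone SCG5 (7B2) serves the prohormone convertase PCSK2 in them, SYP (synaptophysin) spans the membrane of small vesicles, and ENO2 (neuron-specific enolase) and TUBB3 (class III beta-tubulin) are glycolytic and cytoskeletal proteins used as neuronal stains. INSM1 is a transcription factor of neuroendocrine lineages. REST works the other way, as a repressor that binds RE1 elements and keeps neuronal genes silent in epithelial cells. LNCaP cells are known to take on neuroendocrine features, among them ENO2 and TUBB3 protein and neurite-like processes, when androgen or serum is withdrawn or cAMP is raised.

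Library totals ran from 73406825 to 96962135 counts, and levels are given as CPM, read counts relative to library depth after TMM scaling. With 3 counts as the limit, a gene without reads in a library could still have 0.0310 to 0.0413 CPM, for counting error only. Mitochondrial genes held 6.20% to 7.32% of the counts. All 10 luminal prostate markers averaged at least 10 CPM, and FOLH1, a surface antigen of prostate epithelium, was the most abundant of them at 1660 to 1985 CPM. The luminal markers summed to 5255 to 5345 CPM at 0 h, 5803 to 5841 CPM at 12 h and 5821 to 6012 CPM at 24 h. Basal markers summed to 0.110 to 0.509 CPM and leukocyte markers to 0.0408 to 0.263 CPM over the 8 libraries. Fibroblast markers summed to 21.2 to 23.8 CPM, most of it COL1A1 at 18.9 to 21.3 CPM. Endothelial markers summed to 11.2 to 17.3 CPM, mostly VWF. At 12 h 6 of the 10 luminal markers were higher than at 0 h past an adjusted p of 0.05. At 24 h 8 of them were higher and 1 lower. The shares of all genes tested were 4.85% higher at 12 h, and 7.82% higher and 8.49% lower at 24 h. Of the other cell type lists, VWF was lower at 24 h, and none of the 2 basal, 4 fibroblast and 1 leukocyte markers tested passed in edgeR in any comparison. The part of these shifts in the results was not tested. In these bulk libraries of a single cell line, fewer cells expressing a gene and less of its RNA per cell cannot be told apart.

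The promoters of 4 members are shown because ENO2, REST and SYP are the members whose level moved, and because CHGA is a classic cAMP-responsive granin gene that was almost silent here. RefSeq promoter windows (GRCh38.p14) matched 6 of the 9 members, with 8 windows in all, and the 250 bases upstream of each annotated start were read. CHGB, SCG2 and INSM1 had no window. The windows below run 5′ to 3′ on the gene's strand, in lower case, with motif matches in capitals. The capitals mark ACGTG (the core letters bound by hypoxia-inducible factors) in ENO2, GGACAG (the right part of RE1) in REST and TGACGTCA (the cAMP response element) in CHGA. SYP held none of the motifs searched.
ENO2, chr12:6914330-6914579, plus strand: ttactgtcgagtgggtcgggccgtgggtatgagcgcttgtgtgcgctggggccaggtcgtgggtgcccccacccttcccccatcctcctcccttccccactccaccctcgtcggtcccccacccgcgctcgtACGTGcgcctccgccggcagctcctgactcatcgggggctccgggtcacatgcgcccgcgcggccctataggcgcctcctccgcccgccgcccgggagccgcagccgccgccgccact
REST, chr4:56908660-56908909, plus strand, the downstream of its annotated starts: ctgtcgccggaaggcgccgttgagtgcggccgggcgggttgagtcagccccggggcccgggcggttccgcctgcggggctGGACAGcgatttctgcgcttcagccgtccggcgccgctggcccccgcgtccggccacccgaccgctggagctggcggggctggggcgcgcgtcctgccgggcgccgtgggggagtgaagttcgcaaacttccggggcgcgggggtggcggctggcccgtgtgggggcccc
SYP, chrX:49200194-49200443, minus strand: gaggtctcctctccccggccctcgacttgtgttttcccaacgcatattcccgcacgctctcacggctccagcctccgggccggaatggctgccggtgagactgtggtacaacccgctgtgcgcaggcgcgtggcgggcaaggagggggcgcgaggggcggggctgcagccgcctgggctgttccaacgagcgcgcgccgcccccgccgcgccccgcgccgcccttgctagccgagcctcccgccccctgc
CHGA, chr14:92922900-92923149, plus strand: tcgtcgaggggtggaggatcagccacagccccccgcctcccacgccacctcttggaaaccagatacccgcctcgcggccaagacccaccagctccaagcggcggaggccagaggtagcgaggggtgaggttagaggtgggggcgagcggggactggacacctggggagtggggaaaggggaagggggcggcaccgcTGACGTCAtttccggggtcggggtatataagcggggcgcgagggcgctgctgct

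The match in CHGA began 54 bases upstream of the start, and TGACGTCA, read on both strands, was present in 1.65% of 35116 windows of the same length. The ACGTG of ENO2 began 118 bases upstream, and 18.5% of all windows held these letters. GGACAG began 170 bases upstream in the REST window and also in a TUBB3 window, against 17.2% of all windows. The left part of RE1, AGCACC, was in no member window and in 12.99% of all, and the whole element with its parts 2 bases apart was likewise in no member window and in 0.0513% of all. RE1 elements outside these windows were not searched. The windows of ENO2 and SYP each had 74.0% G and C, the REST window shown had 78.4% and that of CHGA 68.8%, above the median of 58.0% over all windows. SCG5 had 56.4%. These matches describe letters and not bound sites.

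The levels of the 8 counted members fell into an abundant and a scarce set. Per kilobase of exon, ENO2 averaged 19.9 CPM over the 8 libraries (range 18.0 to 22.2) and REST 7.32 CPM (6.22 to 8.59). Each was well above SYP at 0.350 CPM per kilobase (0.247 to 0.408), SCG5 at 0.122 (0.0413 to 0.225) and TUBB3 at 0.0710 (0.0367 to 0.0961). SCG2 averaged 0.0328 CPM per kilobase (0.0131 to 0.0512), CHGA 0.0139 (0 to 0.0338) and CHGB 0.00106 (0 to 0.00612). The ranges of ENO2, REST and SYP did not overlap each other or that of any other member. The ranges of SCG5 and TUBB3 overlapped, as did those of TUBB3 and SCG2, and of SCG2, CHGA and CHGB with their neighbours in the order. The enolase ENO1, the form that most cells use, stood at 663 CPM per kilobase, and TUBB, a common beta-tubulin, at 201. Measured over the longest transcript instead of all exons, ENO2 was at 30.1 and SYP at 0.714 CPM per kilobase, in the same order of members.

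**Figure D1:**
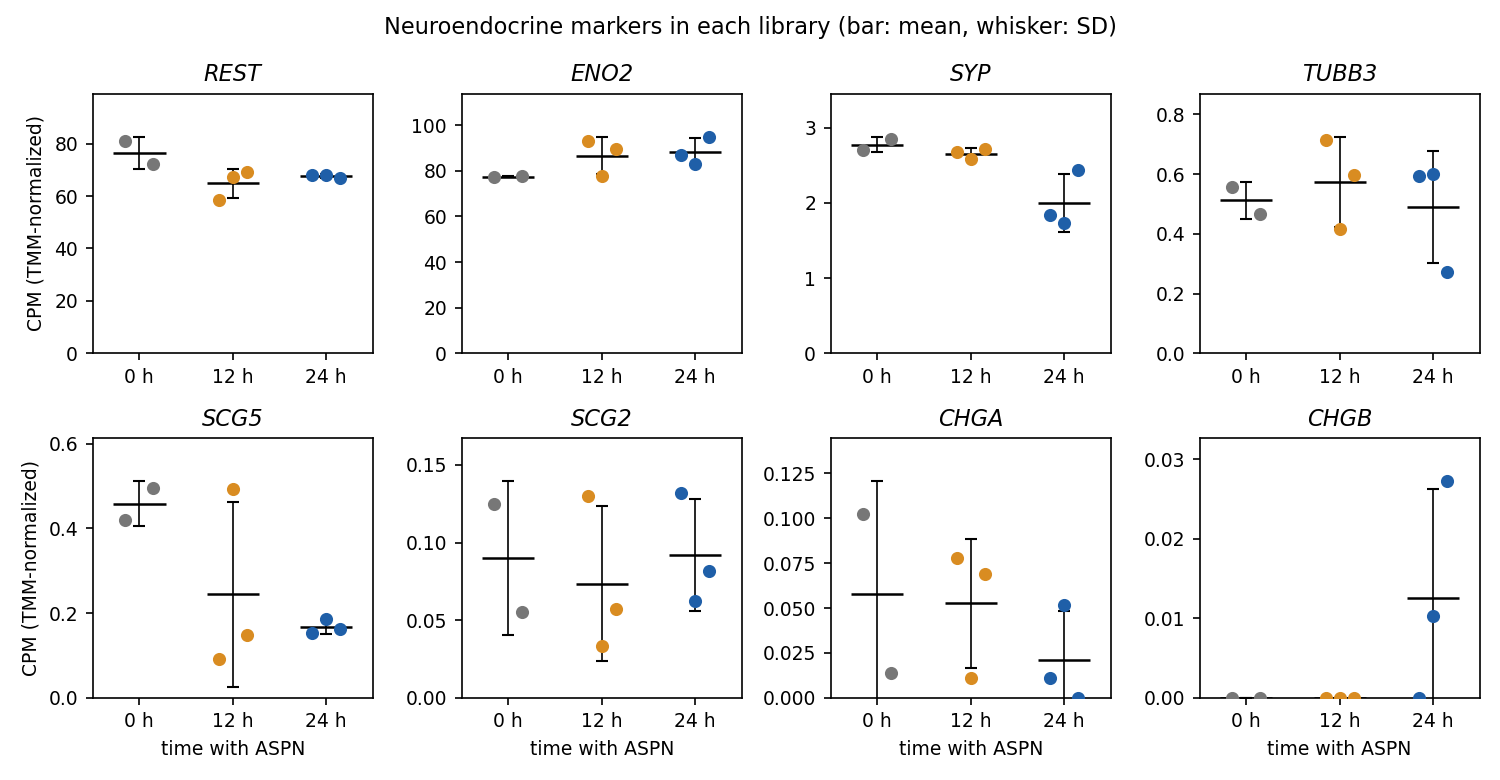
CPM (vertical axis, TMM-normalized, starting at 0 and scaled for each gene) of the 8 counted members in each library against hours with ASPN; points are libraries, bars are means and whiskers the SD, cut at 0. REST sits at 72.2 and 80.8 CPM at 0 h and at 58.5 to 69.0 CPM at 12 h and 24 h, whereas CHGB has no counts before 24 h.

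The members whose change passed the test changed by less than 1.5-fold. Between 12 h and 0 h, 1 of the 6 tested members passed an adjusted p of 0.05, against 11.6% of all genes tested. Between 24 h and 0 h, 3 of 6 passed, 1 higher (ENO2) and 2 lower (SYP and REST), against 16.3% of all genes. Taken by direction, 4.85% of all genes were higher and 6.75% lower at 12 h, and 7.82% higher and 8.49% lower at 24 h. Between 24 h and 12 h, edgeR gave 0 of 6, against 2.72% of all genes (1.12% higher, 1.61% lower), with 1 member under an unadjusted p of 0.05, and DESeq2 gave 0 of the 3 it tested. None of the 6 was called at a fold change of 1.5 in any of the comparisons, where 1.05%, 2.45% and 0.18% of all genes were called. At an unadjusted p under 0.05 there were 2, 4 and 1 members in the order of the comparisons above, and DESeq2 called 0 in each. The median log2 change of the 6 was -0.15 at 12 h and -0.12 at 24 h against 0 h, beside a median of 0.00 over all genes in both. These medians pool REST, the repressor, with the markers, some of them scarce, and do not measure the markers alone. The libraries of the compared times did not overlap for 1, 4 and 1 of the 6 members, against 36.9%, 43.2% and 19.6% of all genes. The comparisons with 0 h share the 0 h libraries.

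**Figure D2:**
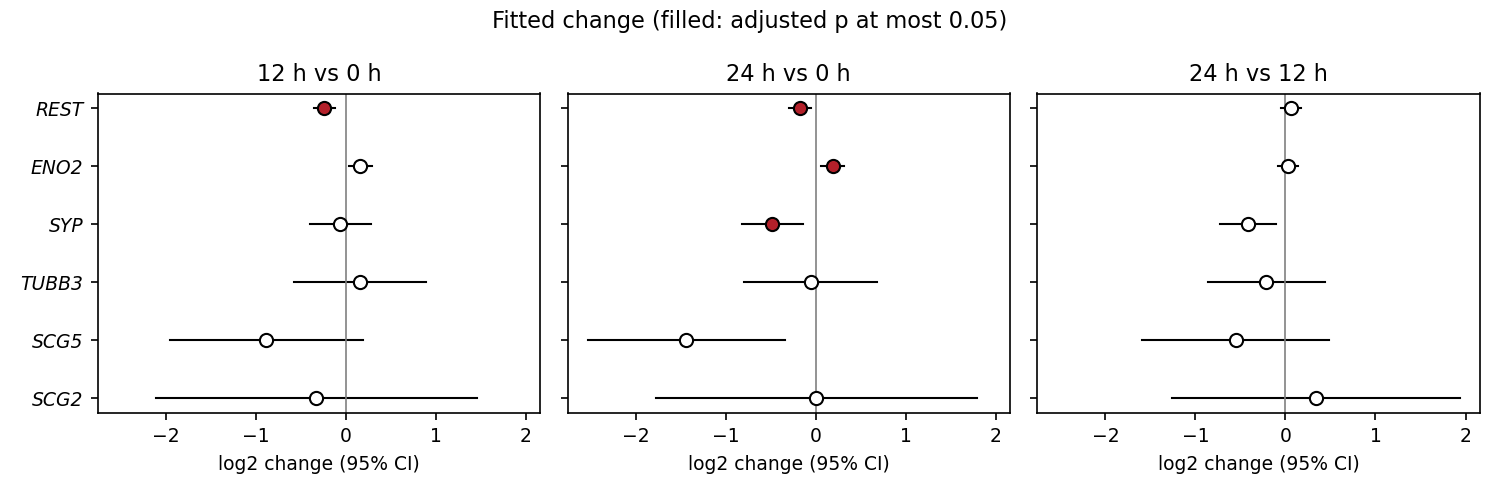
Fitted log2 change of the 6 tested members (horizontal axis, with its 95% confidence interval as a line) in each comparison, the later time minus the earlier; filled points have an adjusted p of at most 0.05. REST is filled at 12 h and 24 h, ENO2 and SYP at 24 h against 0 h, and no member between 24 h and 12 h.

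REST, the repressor (chr4:56907876-56966808), was lower at both later times. It measured 80.8 and 72.2 CPM in the 0 h libraries, 58.5, 67.1 and 69.0 CPM at 12 h, and 68.2, 68.1 and 66.7 CPM at 24 h. Every later library lay below both 0 h libraries. Mean levels were 76.5 ± 6.12 (SD, n = 2), 64.9 ± 5.61 (SD, n = 3) and 67.7 ± 0.812 CPM (SD, n = 3) in order of time. The fitted log2 change was -0.24 (SE 0.0590, adjusted p = 0.00656) at 12 h and -0.18 (SE 0.0590, adjusted p = 0.0357) at 24 h, so that the level fell by 15.2% and by 11.5%. From 12 h to 24 h the change was 0.06 (95% interval -0.05 to 0.17, adjusted p = 0.695). The fall rested on the higher 0 h library, since without 0 h replicate 1 the log2 change was -0.15 at 12 h (adjusted p = 0.319) and -0.10 at 24 h (adjusted p = 0.521). At 24 h the adjusted p also rose above 0.05 when any 24 h library was left out, at 0.0849, 0.0872 and 0.119. Exons of REST share 0.861% of their bases with NOA1 on the opposite strand.

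ENO2, the neuronal enolase (chr12:6913745-6923698), was the member that rose. Its level was 77.2 and 77.7 CPM at 0 h, 93.0, 77.6 and 89.4 CPM at 12 h, and 87.1, 83.2 and 94.9 CPM at 24 h. All 24 h libraries exceeded both 0 h libraries, whereas 12 h replicate 2 lay between them. Mean levels were 77.5 ± 0.342 (SD, n = 2), 86.6 ± 8.07 (SD, n = 3) and 88.4 ± 6.00 CPM (SD, n = 3) in order of time. At 24 h the log2 change was 0.19 (SE 0.0613, adjusted p = 0.0306), 14.1% above 0 h. At 12 h it was 0.16 (SE 0.0613) and did not pass (adjusted p = 0.0892). The 12 h change was 0.23 with an adjusted p of 0.00464 without 12 h replicate 2, and 0.17 with an adjusted p of 0.0234 without a low-count filter. The 24 h change no longer passed without 0 h replicate 1 (adjusted p = 0.256), the second 0 h library (0.138), 24 h replicate 1 (0.0617) or 24 h replicate 3 (0.206).

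ENO2 did not rise alone among the enolases. ENO1 averaged 2955 ± 33.1 (SD, n = 2), 3739 ± 72.1 (SD, n = 3) and 3513 ± 150.3 CPM (SD, n = 3) in order of time, and rose at both later times. Its log2 changes were 0.34 (adjusted p = 1.04e-06) and 0.25 (adjusted p = 3.59e-05), and it passed in all 17 alternative settings of both comparisons. ENO3, the muscle form, rose at 12 h by 0.28 (adjusted p = 0.0394) and was 0.16 above 0 h at 24 h (adjusted p = 0.258). The 12 h change of ENO3 no longer passed without 12 h replicate 1 (adjusted p = 0.145), 12 h replicate 3 (0.0801) or 24 h replicate 1 (0.0541). Nor did it pass with a replicate block (0.0549) or with the compared times alone (0.0677). Without 0 h replicate 1 it was 0.22. Of the 3 other enolase genes tested, 2 passed at 12 h and 1 at 24 h, all higher. The shares of all genes that were higher were 4.85% and 7.82%. Exons of ENO3 share 2.59% of their bases with PFN1 on the opposite strand, which had 271394 counts over the 8 libraries.

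SYP, the vesicle protein (chrX:49187815-49200199), fell late. Its level was 2.70 and 2.85 CPM at 0 h and 2.67, 2.58 and 2.71 CPM at 12 h, and then 1.84, 1.73 and 2.44 CPM at 24 h. The 24 h libraries were all below every earlier library, with replicate 3 the closest to them. Mean levels were 2.77 ± 0.103 (SD, n = 2), 2.66 ± 0.0685 (SD, n = 3) and 2.00 ± 0.383 CPM (SD, n = 3) in order of time. Against 0 h the log2 change at 24 h was -0.48 (SE 0.168, adjusted p = 0.0481), so that it fell by 28.3%. Between 24 h and 12 h it was -0.42 (SE 0.152, 95% interval -0.73 to -0.11), with an unadjusted p of 0.00996 and an adjusted p of 0.159. The adjusted p at 24 h was at the edge of the threshold, and 10 of 17 alternative settings put it above 0.05. Upper-quartile normalization gave an adjusted p of 0.0506, no low-count filter 0.0693 and a fit of the compared times alone 0.0574. Leaving out 0 h replicate 1, the second 0 h library, 24 h replicate 1 or 24 h replicate 2 gave 0.166, 0.189, 0.152 and 0.192, and leaving out 12 h replicate 3 gave 0.0593. Without 12 h replicate 2 it stayed just above 0.05. Without 24 h replicate 3 the log2 change was -0.64 with an adjusted p of 0.0148, past a fold change of 1.5.

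SCG5, the 7B2 chaperone (chr15:32641676-32697098), had few counts and split the 12 h group. It measured 0.420 and 0.495 CPM at 0 h, 0.0908, 0.494 and 0.149 CPM at 12 h, and 0.154, 0.186 and 0.163 CPM at 24 h, from 7 to 44 counts a library. At 12 h, replicate 2 stood at the 0 h level and the other libraries lay below it with the 24 h libraries. The log2 change at 24 h was -1.43 (SE 0.538, 95% interval -2.53 to -0.34) with an adjusted p of 0.0667, and that at 12 h was -0.88 (SE 0.524, adjusted p = 0.324). Without 12 h replicate 2 the 12 h change was -1.91 (adjusted p = 0.0284) and the 24 h change passed at 0.0449. The 24 h change also passed without 12 h replicate 1 (0.0367), without a low-count filter (0.0455) and with the compared times alone (0.0327). In GENCODE release 44, exons of SCG5 share 51.4% of their bases with the readthrough gene ARHGAP11A-SCG5 on the same strand. Of the 100-base stretches of the longest SCG5 transcript, 90.8% recur in transcripts of that gene. The counts hold no entry for ARHGAP11A-SCG5, and how shared reads were assigned was not stated.

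TUBB3, the neuronal beta-tubulin (chr16:89921392-89938761), showed no change past the test. It measured 0.556 and 0.468 CPM at 0 h, 0.713, 0.415 and 0.595 CPM at 12 h, and 0.593, 0.600 and 0.272 CPM at 24 h. The groups overlapped at every time. The 95% interval of its log2 change was -0.58 to 0.89 at 12 h and -0.79 to 0.68 at 24 h. TUBB3 shares 21.3% of its exon bases with the unnamed gene ENSG00000198211 on the same strand, which had 2 counts over the 8 libraries. Of the 100-base stretches of the longest TUBB3 transcript, 30.0% recur in other genes, among them TUBB2A and TUBB2B.

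The granins were near or under the limit of detection. SCG2 (chr2:223596940-223602361) had 11 and 4 counts at 0 h, 10, 3 and 5 at 12 h, and 12, 6 and 6 at 24 h. Its groups overlapped, and the 95% interval of the log2 change was -2.11 to 1.45 at 12 h and -1.78 to 1.80 at 24 h. CHGA (chr14:92923150-92935285) had 9 and 1 counts at 0 h, 6, 1 and 6 at 12 h, and 1, 5 and 0 at 24 h. Every time had a library with at most 1 CHGA count. CHGB (chr20:5911510-5925353) had 0 counts in each library at 0 h and 12 h and 0, 1 and 2 counts at 24 h. The CHGB counts lie within the 3 counts that a reading of 0 allows in any library, and no fold is given for CHGA or CHGB.

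The genes around the members were taken as lists of granule cargo, vesicle fusion, lineage factors, the REST complex, REST-repressed genes, diagnostic markers and tubulins. These lists were chosen with earlier results of these data known, so their shares beside those of all genes are descriptions. Of 7 tested genes of secretory granule cargo and processing (15 listed), 1 rose and 1 fell at 24 h against 0 h, a share to be read beside the 16.3% of all genes. CPE, the carboxypeptidase that trims prohormones, went from 70.2 to 71.6 CPM at 0 h to 77.9 to 80.0 CPM at 24 h (log2 change 0.16, adjusted p = 0.0186). The CPE change no longer passed with a replicate block (adjusted p = 0.0585), or without 24 h replicate 2 (0.0742) or 24 h replicate 3 (0.0684). Without 0 h replicate 1 it was 0.14. CPD, the related carboxypeptidase of the Golgi, fell from 182 to 195 CPM at 0 h to 156 to 161 CPM at 24 h (log2 change -0.25, adjusted p = 0.000167) in all 17 settings. Its log2 change of -0.14 at 12 h had an adjusted p of 0.0490 that 13 of 17 settings put above 0.05, reaching 0.534 without 0 h replicate 1. PCSK2, the convertase that SCG5 serves, summed to 2 counts over the 8 libraries, and SCG3 to 20. Of the 12 genes of this list with counts, 6 averaged under 1 CPM and 3 at least 10 CPM. PCSK1N averaged 12.3, 12.3 and 14.0 CPM in order of time, and PAM 6.17, 6.60 and 7.21 CPM.

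Genes of vesicle docking and fusion moved in both directions. Of 24 tested, 3 rose and 1 fell at 12 h, and 6 rose and 3 fell at 24 h, against 0 h. Of all genes, 4.85% were higher and 6.75% lower at 12 h, and 7.82% higher and 8.49% lower at 24 h. SYT7, a calcium sensor of exocytosis, rose from 30.3 to 34.1 CPM at 0 h to 38.2 to 39.5 CPM at 12 h (log2 change 0.28, adjusted p = 0.00191) and 38.9 to 42.2 CPM at 24 h (0.34, adjusted p = 0.000109). Without 0 h replicate 1 the 12 h change of SYT7 no longer passed (adjusted p = 0.151). CADPS2, which primes dense-core granules, fell at 24 h from 15.9 to 16.6 CPM to 12.0 to 12.4 CPM (log2 change -0.41, adjusted p = 0.000141). SYT11 was called at 12 h, with 0.500 and 0.550 CPM at 0 h and 0.123 to 0.233 CPM at 12 h (log2 change -1.64, SE 0.458, adjusted p = 0.0156). SYT11 rested on 11 to 44 counts a library. Its call was lost with a replicate block (adjusted p = 0.0539), or without 12 h replicate 2 (0.0542) or 3 (0.0536). The log2 change of SYT11 was -1.71 without 0 h replicate 1 and -1.56 without the other 0 h library.

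Among 6 tested neuroendocrine lineage transcription factors of 16 listed, 1 fell and none rose at 24 h against 0 h, beside 16.3% of all genes. MYT1, a zinc finger factor of neural and endocrine progenitors, fell from 19.1 to 19.8 CPM at 0 h to 15.1 to 16.6 CPM at 12 h (log2 change -0.29, adjusted p = 0.0129) and 13.5 to 16.6 CPM at 24 h (-0.39, adjusted p = 0.000519). Its 12 h change no longer passed without 0 h replicate 1 (adjusted p = 0.191). SOX11 was 5.60 to 6.02 CPM at 0 h, 4.84 to 5.72 CPM at 12 h and 6.32 to 7.52 CPM at 24 h. SOX11 rose from 12 h to 24 h by 0.38 (adjusted p = 0.0315), which no longer passed without 12 h replicate 2 (0.0721), 12 h replicate 3 (0.175) or any of the 24 h libraries (0.0555, 0.0969 and 0.227). SOX2, PAX6 and NKX2-1 summed to 4, 2 and 9 counts over the 8 libraries. Of the 12 factors with counts, 9 averaged under 1 CPM and 2 at least 10 CPM, MYT1 and ONECUT2. ONECUT2 averaged 18.6, 19.8 and 19.4 CPM in order of time.

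Of 19 tested genes of the REST complex and its regulators, 5 rose and 1 fell at 24 h against 0 h, and 3 rose and 1 fell at 12 h, beside 16.3% and 11.6% of all genes. RCOR2, a CoREST corepressor, was called higher at 24 h, at 1.54 to 2.06 CPM at 0 h and 2.53 to 3.29 CPM at 24 h (log2 change 0.65, SE 0.202, adjusted p = 0.0230). The RCOR2 call was lost without the second 0 h library (adjusted p = 0.243) or 24 h replicate 1 (0.128). CTDSPL and CTDSP2, small phosphatases that act on REST, went opposite ways at 24 h. CTDSPL rose by 0.29 (adjusted p = 0.000115), from 50.5 to 53.7 CPM to 62.9 to 64.5 CPM, and CTDSP2 fell by 0.22 on the log2 scale (adjusted p = 0.000308), from 172 to 174 CPM to 147 to 150 CPM. CTDSP1, the third of them, was 0.10 above 0 h at 24 h (adjusted p = 0.213). At 12 h CTDSPL was 0.19 above 0 h (adjusted p = 0.0115), which no longer passed without the second 0 h library (0.0796). SRRM4, a neural splicing factor that acts on REST transcripts, summed to 35 counts over the 8 libraries.

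Of 17 tested genes that REST is known to repress (30 listed), 4 rose and 3 fell at 24 h against 0 h, with a median log2 change of -0.09 beside 0.00 for all genes. At 12 h, 1 rose and 2 fell. Of all genes, 16.3% passed at 24 h and 11.6% at 12 h. BEX2, a small neuronal adaptor protein, fell from 74.7 and 82.8 CPM at 0 h to 53.4 to 65.3 CPM at 12 h (log2 change -0.41, adjusted p = 3.06e-05) and 51.7 to 55.7 CPM at 24 h (-0.55, adjusted p = 1.20e-07), in all 17 settings of both comparisons. CHRNA4, a nicotinic receptor subunit, was called lower at 24 h, at 1.35 and 1.72 CPM at 0 h and 0.640 to 1.12 CPM at 24 h (-0.73, SE 0.249, adjusted p = 0.0404). The CHRNA4 call was lost with a replicate block (adjusted p = 0.0992), or without 24 h replicate 2 (0.0669) or 24 h replicate 3 (0.185). Its log2 change was -0.90 without 0 h replicate 1 and -0.55 without the second 0 h library. Of the genes in these lists, 10 stand in more than 1 list.

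Of 9 other diagnostic markers tested (19 listed), 3 rose and 1 fell at 24 h against 0 h, and 1 rose at 12 h, beside 16.3% and 11.6% of all genes. DDC, the decarboxylase that makes dopamine and serotonin, was 50.1 and 56.1 CPM at 0 h, 43.8, 49.0 and 49.7 CPM at 12 h, and 68.5, 69.0 and 71.2 CPM at 24 h. All 12 h libraries lay below and all 24 h libraries above both 0 h libraries. The log2 change of DDC was -0.16 at 12 h (adjusted p = 0.0713), 0.39 at 24 h (adjusted p = 8.72e-06) and 0.55 between 12 h and 24 h (SE 0.0521, adjusted p = 5.15e-08), where it ranked 3 by p among all genes tested. The DDC changes at 24 h passed in all 17 settings, and its 12 h value passed without the second 0 h library (0.0213) or 12 h replicate 2 (0.0476). MAPT (tau) rose from 29.6 and 30.3 CPM at 0 h to 32.9 to 34.7 CPM at 12 h and 37.3 to 39.0 CPM at 24 h. Its log2 change was 0.35 at 24 h (adjusted p = 3.00e-05, in all 17 settings) and 0.17 at 12 h (adjusted p = 0.0498). Leaving out any 12 h or 24 h library put the 12 h change above 0.05, at 0.0625 to 0.0936. So did no low-count filter (0.0562), a replicate block (0.105) and the compared times alone (0.115). Without 0 h replicate 1 it was 0.19, and without the second 0 h library 0.17. The marker that fell was MAP2, a neuronal microtubule protein, at 7.29 and 8.41 CPM at 0 h, 6.09 to 7.27 CPM at 12 h and 5.41, 6.15 and 6.36 CPM at 24 h. Its log2 change was -0.40 at 24 h (adjusted p = 0.00993) and -0.24 at 12 h (adjusted p = 0.163). DLL3 was the other marker that rose at 24 h, from a mean of 6.94 to 8.67 CPM (log2 change 0.32, adjusted p = 0.0213). Results in the alternative settings are not given for MAP2 and DLL3.

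**Figure D3:**
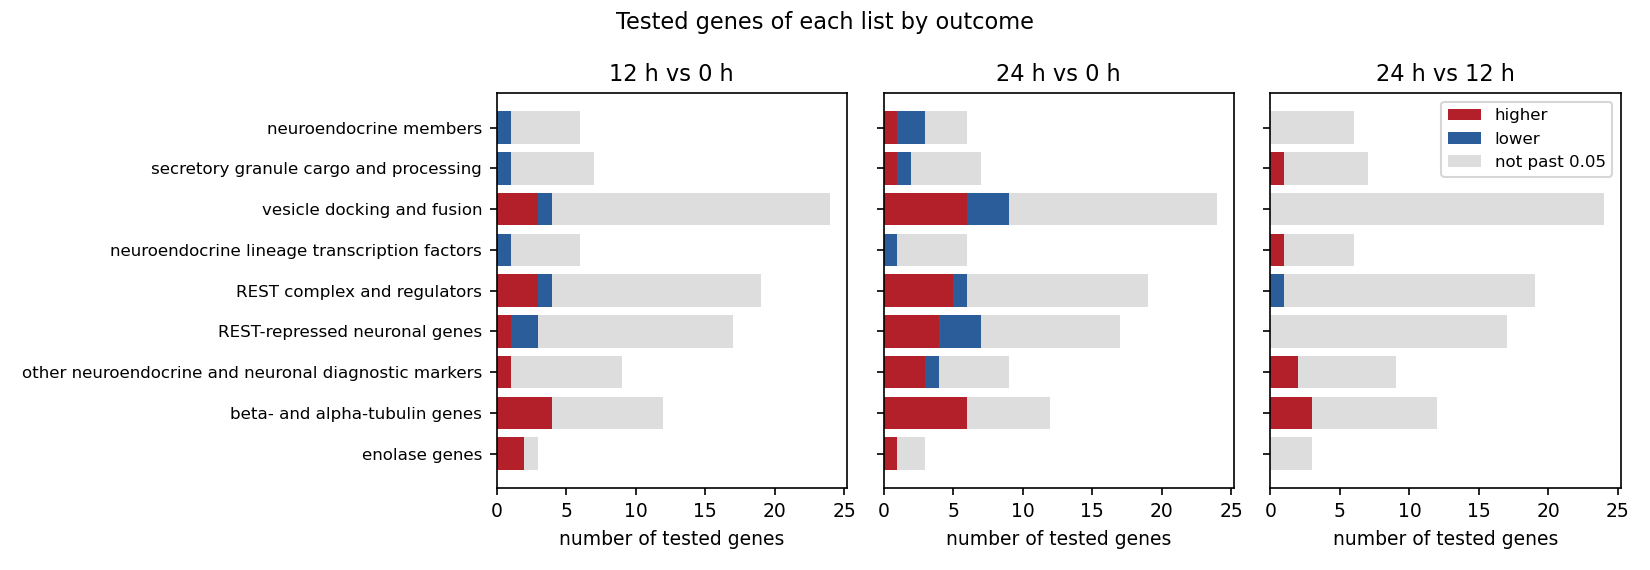
Number of tested genes (horizontal axis) that were higher, lower or not past an adjusted p of 0.05, for the members and each related list, in the 3 comparisons. The tubulin bars hold higher genes and no lower ones in each comparison, and the members' bar holds 1 higher and 2 lower at 24 h against 0 h.

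Several other tubulins rose. Of 12 tested beta- and alpha-tubulin genes, 4 rose at 12 h and 6 at 24 h against 0 h, and 3 between 12 h and 24 h, with none lower. Of all genes, 4.85%, 7.82% and 1.12% were higher in these comparisons. At 24 h 3 of the 12 were called at a fold change of 1.5, against 2.45% of all genes, and the median log2 change of the 12 was 0.39. The tubulin list was chosen with earlier results of these data known, so these shares are a description and no independent test. TUBB4A, a beta-tubulin of brain, rose from 32.5 and 37.1 CPM at 0 h to 38.7 to 43.3 CPM at 12 h and 52.9 to 55.2 CPM at 24 h (log2 change 0.65, adjusted p = 2.57e-09). TUBA1A, an alpha-tubulin of neurons, was 6.10 and 7.17 CPM at 0 h, 6.26 to 7.56 CPM at 12 h and 9.98 to 12.0 CPM at 24 h (0.73, adjusted p = 6.81e-06). TUBA4A rose from 60.7 and 76.5 CPM at 0 h to 87.5 to 91.0 CPM at 12 h and 96.7 to 108 CPM at 24 h (0.60, adjusted p = 6.89e-07). These 24 h changes passed the adjusted p in all 17 settings, but without 0 h replicate 1 the number of tubulins called at a fold change of 1.5 went from 3 to 1. At 12 h the log2 change was 0.25 for TUBB4A (adjusted p = 0.00685, and 0.328 without 0 h replicate 1) and 0.39 for TUBA4A (0.000368, and 0.0665 without 12 h replicate 1). Exons of TUBA1A, TUBA4A and TUBB4A overlap genes on the opposite strand (10.8%, 20.01% and 17.1% of their exon bases), and counting by strand was not stated. Of the 100-base stretches of the longest TUBA1A transcript, 13.2% recur in other genes, among them TUBA1B and TUBA1C. The difference between TUBB3 and the other tubulins was not tested.

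**Figure D4:**
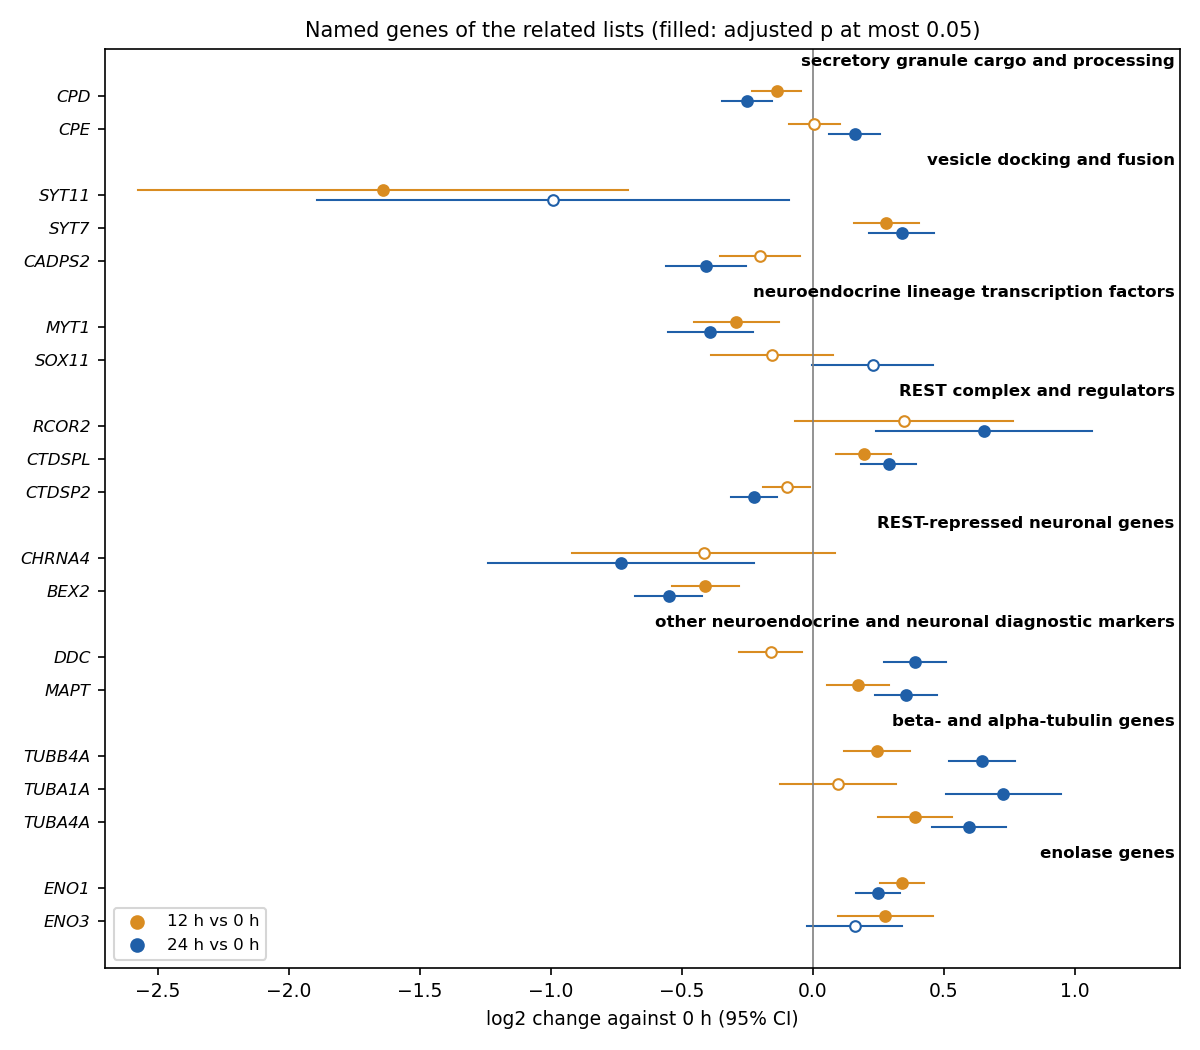
Log2 change against 0 h (horizontal axis, with 95% confidence intervals) of the named genes of each related list at 12 h (orange) and 24 h (blue); filled points have an adjusted p of at most 0.05. DDC lies below 0 at 12 h and above 0 at 24 h, BEX2 below 0 at both, and RCOR2, TUBB4A, TUBA1A and TUBA4A highest at 24 h.

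The genes whose profile over the 8 libraries was most like that of a member were found among 11583 well-counted protein-coding genes, as a description over points that share libraries and depth. UBTD1, SOX13 and LINGO3 were closest to ENO2 (Pearson r of log2 CPM 0.98, 0.96 and 0.96). KIF14, NEK2 and PPIE were closest to SYP (0.98, 0.97 and 0.96). MMP16, PHF3 and ANKIB1 were closest to REST (each 0.99). REST had 288 genes with r over 0.9, SYP 43 and ENO2 31.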

How the data were processed

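Gene counts of RNA-seq libraries were analysed. The deposited file holds unnormalized read counts for each gene. In the study, adapters were trimmed with Cutadapt, reads aligned to GRCh38 with STAR and counted over GENCODE genes with featureCounts by the authors. Strand, pair and multi-mapping options were not stated. A time-0 library was left out by the authors for quality. The second 0 h column carries the number 3, which no 0 h label has, so it was used without a replicate number. Exon lengths came from GENCODE release 44.

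Counts were fitted with edgeR 4.0.16 (R 4.3.3, limma 3.58.1): filterByExpr, TMM, glmQLFit (robust) and glmQLFTest, with 1 coefficient per time over 8 libraries. Two-sided p-values were adjusted by Benjamini-Hochberg over 21071 genes, and a call needed an adjusted p of at most 0.05 and a fold change of at least 1.5. SE was derived from the log2 change and F. The biological coefficient of variation was 5.59%. The fit was checked on simulated counts. Chi-square per degree of freedom between replicates was 5.10 to 13.8, so each library was counted once. Depth ran from 73406825 to 96962135 counts.

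Members and lists were chosen with earlier results of these data known. Besides the members, the text names the genes called in a list, the 2 with the smallest p of each list, the most abundant gene of a cell type list, and the 3 profiles most like a well-counted member (mean of at least 100 normalized counts) that passed. PCSK2, SCG3, PCSK1N, PAM, SRRM4, SOX2, PAX6, NKX2-1, ONECUT2, TUBB, CTDSP1, MAP2, DLL3, SRRM2 and KLK3 were named after their values were seen. Results of a further gene that meets these conditions are left out. Alternatives were RLE and upper-quartile scaling, other low-count filters, DESeq2 1.42.0, protein-coding genes alone, thinned counts, fits of the compared times, a replicate block and leaving out each library. Motifs were searched on both strands of RefSeq windows.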

Additional observations from a re-analysis of the deposited data

Results flagged for a closer look

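Of the genes named for a call or a smallest p, those below changed between 12 h and 24 h of ASPN. The test was of that difference, so their changes against 0 h were unequal at these times. DDC rose by 0.55, TUBA1A by 0.63, TUBB4A by 0.40, SOX11 by 0.38, MAPT by 0.18 and CPE by 0.15, on the log2 scale. The adjusted p-values were 5.15e-08, 0.000104, 2.06e-05, 0.0315, 0.0446 and 0.0429 in the same order. Every 24 h library of each of these genes lay above every 12 h library. DDC, TUBA1A and TUBB4A passed in all 17 alternative settings, whereas SOX11 did not pass in 5, MAPT in 8 and CPE in 9 of them. None of the 6 tested members passed this test. Outside that choice, SRRM2 (log2 change -0.22, adjusted p = 0.00649) and KLK3 (-0.18, 0.0129) of the lists fell from 12 h to 24 h. FOLH1 (0.21, adjusted p = 0.000677) and TUBB (0.15, 0.0476) rose.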

How the results depend on the processing

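None of the 6 tested members was called at a fold change of 1.5 in the reported fit. Between 24 h and 0 h, 1 was called without a low-count filter and 1 with the compared times alone. With the adjusted p alone the numbers were 1 (12 h) and 3 (24 h) against 0 h. Leaving out each library gave 0 to 1 members called against 0 h, at 12 h and at 24 h. The called member was SYP at 24 h without 24 h replicate 3 (-0.64, adjusted p = 0.0148), SCG5 at 24 h without 12 h replicate 1 (-1.43, 0.0367) or 2 (-1.44, 0.0449), and SCG5 at 12 h without 12 h replicate 2 (-1.91, 0.0284). Per kilobase of the longest transcript the levels were 30.1 for ENO2, 0.714 for SYP, 0.218 for SCG5, 0.104 for TUBB3 and 9.34 CPM for REST.

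Libraries of 12 h and 24 h with the same number deviated together with r = 0.13, 0.03 and 0.03. The labels give them a number in common and state no pairing of wells. For the block, the second 0 h library was taken by the number 3 of its column, which no 0 h label gives. The deviations of the 0 h libraries from their mean mirror each other and say nothing more on pairing. A replicate block moved the called genes from 222 to 219, from 516 to 467 and from 38 to 36, and 4 of 6 libraries correlated best with their own number. With it, 1 member was called at 24 h against 0 h (SCG5, -1.85, adjusted p = 0.0168), SYP stood at 0.108 and ENO2 passed at 12 h (0.0136).

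Directions turned for changes that did not pass. SCG2 at 24 h against 0 h was -0.00235 with protein-coding genes alone (adjusted p = 0.998). Leaving out libraries, the log2 changes against 0 h ranged from -0.98 to 0.39 at 12 h and -0.43 to 0.72 at 24 h for SCG2, from -0.016 to 0.35 and -0.22 to 0.22 for TUBB3, and at 12 h from -0.0094 to 0.031 for CPE and -0.018 to 0.23 for TUBA1A. Between 24 h and 12 h they ranged from -0.046 to 0.076 for ENO2, -0.022 to 0.99 for SCG2, -0.94 to 0.47 for SCG5, -0.40 to 0.059 for TUBB3 and -0.014 to 0.11 for REST. The cause was not tested. DESeq2 called 163, 438 and 29 genes where edgeR called 222, 516 and 38. Depth limits CHGA, CHGB, SCG2, SCG5 and TUBB3, whose counts were at most 58 in any library. The 0 h group has 2 libraries, so leaving out 1 assumes that the remaining library varies like the other groups.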
